A study of Mus musculus with 12 samples.

Results

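Inflammasomes are cytosolic complexes in which a sensor protein, once triggered, recruits the adaptor ASC and the protease caspase-1. Active caspase-1 matures the interleukin-1 family cytokines and cuts gasdermin D, whose freed end forms pores in the plasma membrane, a lytic cell death called pyroptosis. Caspase-11, encoded by Casp4 in the mouse, cuts gasdermin D after binding lipopolysaccharide in the cytosol. Necroptosis is a second lytic route, in which the kinase RIPK3 phosphorylates the pore-forming protein MLKL, and caspase-8 holds it in check. Macrophages of the airspace carry these pathways as part of their response to inhaled microbes, and the transcripts of several sensors and cytokines are induced by Toll-like receptor signalling, a step known as priming.

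Values were taken for 10 genes of these pathways: Nlrp3, Nlrc4, Naip2, Pycard, Casp1, Casp4, Casp8, Gsdmd, Ripk3 and Mlkl. They were picked by gene symbol for their known roles, with earlier results of these data known, and are 10 of the 40847 gene rows counted. All 10 passed the filter on low counts, which kept 14749 genes. The RNA came from FLAMs (fetal liver alveolar-like macrophages), a mouse culture derived from fetal liver and grown in GM-CSF. They stand in for lung alveolar macrophages without having been in a lung. All 12 libraries come from cells kept in mouse GM-CSF at 30 ng/ml. The untreated group received nothing else. The TGFβ group was also given human recombinant TGFβ1 at 20 ng/ml. The Pam3 group received the Toll-like receptor 2 ligand Pam3CSK4 at 25 ng/ml for 18 h. The Pam3+TGFβ group had both agents. Each group holds 3 libraries. The labels do not state how long TGFβ was given, the strain, or whether the libraries of a group came from separate cultures, so p-values here measure the spread between these libraries, which may be technical.

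Library totals ran from 34036650 to 44374115 counts. All 10 macrophage markers listed were counted in every group, with Lyz2 as the highest. Their summed level was 32900 to 37100 CPM (counts scaled to library size) in untreated libraries, 17500 to 18500 with TGFβ, 35900 to 37000 with Pam3 and 26700 to 27300 with both. All 10 alveolar macrophage markers were also counted, with sums of 5730 to 6510, 6500 to 6930, 7240 to 7690 and 7110 to 7400 CPM in the same order. These sums, mostly Chil3 and Marco, cover single markers that differed widely between untreated and TGFβ cells: Marco was at 2147 against 123 CPM and Fabp4 at 31.1 against 0.132, while Siglecf was at 32.2 against 300.4, Ear1 at 5.05 against 72.3 and Krt79 at 0.147 against 52.5. Of the macrophage markers, Lyz2 was at 29820 against 15250 CPM and Itgam at 1088 against 38.75 in the same groups. Mertk was at 223.2 against 222.2 CPM there and Fcgr1 at 81.14 against 91.31. Summed markers of other cells were low beside these. The 10 neutrophil genes summed to 7.27 to 19.3 CPM, with Mpo and Retnlg at 0 in every library. Of them S100a8 was at 13.8 CPM untreated and 3.065 with TGFβ, and Cxcr2 at 0.0679 and 6.74. The 8 dendritic cell genes summed to 16.8 to 25.1 CPM, most of it Clec9a, and 8 lymphoid genes to at most 0.419 CPM. Of 8 hepatocyte genes Afp alone passed the filter, and the list summed to 5.8 to 10.2 CPM. Mast cell and basophil, erythroid and megakaryocyte, and stromal genes summed to at most 1.32, 5.12 and 4.94 CPM. The part of these shifts in the values below was not tested.

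Promoter windows are shown for Casp4, Mlkl and Nlrp3, the 3 members with the largest interaction of the agents, and for Ripk3, which had the largest TGFβ effects. They were chosen by those values, and the part of any sequence in it was not tested. RefSeq windows of 250 bases before to 50 bases after an annotated start (a table on GRCm38.p6) were matched to 9 of the 10 genes by symbol. Each was placed on GRCm39, the build of the counts, by its exact sequence, which occurred there 1 time. Positions are counted from the start base as 1, with the base before it as -1. Capitals mark the matches to the motifs searched.
Casp4, chr9:5308599-5308898, plus strand: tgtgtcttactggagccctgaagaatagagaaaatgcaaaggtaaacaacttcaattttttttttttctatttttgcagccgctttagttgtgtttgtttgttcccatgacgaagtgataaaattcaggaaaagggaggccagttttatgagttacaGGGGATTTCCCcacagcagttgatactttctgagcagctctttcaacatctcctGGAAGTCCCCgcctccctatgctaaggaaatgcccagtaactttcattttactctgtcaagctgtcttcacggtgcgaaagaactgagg
Nlrp3, chr11:59432145-59432444, plus strand: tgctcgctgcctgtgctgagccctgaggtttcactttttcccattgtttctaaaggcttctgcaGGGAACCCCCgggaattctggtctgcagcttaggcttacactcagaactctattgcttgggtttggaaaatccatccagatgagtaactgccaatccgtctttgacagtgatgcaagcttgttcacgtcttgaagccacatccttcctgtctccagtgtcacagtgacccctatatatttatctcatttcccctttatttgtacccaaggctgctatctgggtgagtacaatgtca
Mlkl, chr8:112064788-112065087, minus strand: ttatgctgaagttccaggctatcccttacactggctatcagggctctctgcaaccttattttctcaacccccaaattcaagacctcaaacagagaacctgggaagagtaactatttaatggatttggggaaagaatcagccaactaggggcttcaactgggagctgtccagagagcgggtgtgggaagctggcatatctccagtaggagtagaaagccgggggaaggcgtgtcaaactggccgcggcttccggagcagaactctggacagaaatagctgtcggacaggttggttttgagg
Ripk3, chr14:56026265-56026564, minus strand: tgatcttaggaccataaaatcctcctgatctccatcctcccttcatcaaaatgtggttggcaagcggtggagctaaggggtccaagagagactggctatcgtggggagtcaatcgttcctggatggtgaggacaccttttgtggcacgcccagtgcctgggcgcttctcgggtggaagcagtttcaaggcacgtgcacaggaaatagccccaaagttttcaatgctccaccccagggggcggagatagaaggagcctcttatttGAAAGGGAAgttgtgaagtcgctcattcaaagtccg
The Casp4 window held matches to the consensus of NF-κB, a factor activated by Toll-like receptors, that began at -93 and -92 and overlap, and a match on the opposite strand at -39. The Nlrp3 window shown held 1 such match, at -186, and the Mlkl window none. The RefSeq start of Mlkl lies 331 bases inside the GENCODE gene, and its window lies wholly within that gene. The same holds for Casp8, whose start lies 7286 bases inside and whose window held no match to any motif. The table holds a further window for Casp4, which mostly overlaps the one shown and also held 3 matches, and a further one for Nlrp3, at chr11:59433262-59433561, which held none. An NF-κB match stood in the windows of 9.55% of 27025 genes and of 2 of the 9. In the Ripk3 window the core of the interferon-stimulated response element, GAAANNGAA, matched at 15 as GAAAGGGAA. That core stood in the windows of 9.76% of genes, and of the 9 also in that of Naip2. The AP-1 motif TGANTCA (8.97% of genes) and the interferon-gamma-activated motif TTCNNNGAA (9.55%) were in none of the 9, and the PU.1 motif GAGGAAGT (3.69%) was in that of Pycard alone. All motifs were searched on both strands, and a match is a description of letters, not of binding.

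Across the 10 genes, Pam3 raised more transcripts, and by more, in cells that had TGFβ than in cells that did not. Without TGFβ, 5 of the 10 rose with Pam3 and 0 fell, against 18.3% of all tested genes called (9.62% higher, 8.66% lower). The median log2 fold change of the 10 was 0.17, and that of all tested genes 0.00037. With TGFβ, 9 of the 10 rose with Pam3 and 0 fell, against 38.5% of tested genes (20.4% higher, 18.1% lower), with medians of 0.40 and -0.02. The difference between the Pam3 responses, tested as the interaction of the 2 agents, passed for 7 of the 10, all with the larger response under TGFβ. Of all tested genes 15.9% passed it, 10.3% in that direction and 5.67% in the other, and the medians were 0.42 and 0.0045. The threshold for a call was 0.05 on the Benjamini-Hochberg adjusted p of edgeR's quasi-likelihood test over all tested genes, and values after ± are the SD of 3 libraries for levels and the standard error (SE) for log2 fold changes.

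TGFβ alone lowered most of the 10. Without Pam3, 7 fell with TGFβ and 2 (Nlrc4 and Naip2) rose, against 51.0% of tested genes called (22.9% higher, 28.1% lower), with a median log2 fold change of -0.41 for the 10 and -0.0084 for all. Among cells given Pam3, 5 were higher with TGFβ and 2 (Pycard and Ripk3) lower, against 45.3% of tested genes (21.5% higher, 23.8% lower), with medians of 0.25 and -0.0017. These comparisons reuse the same 4 groups, so they are not separate lines of evidence. In bulk RNA, fewer cells that make a transcript and less of it per cell cannot be told apart.

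**Figure D1:**
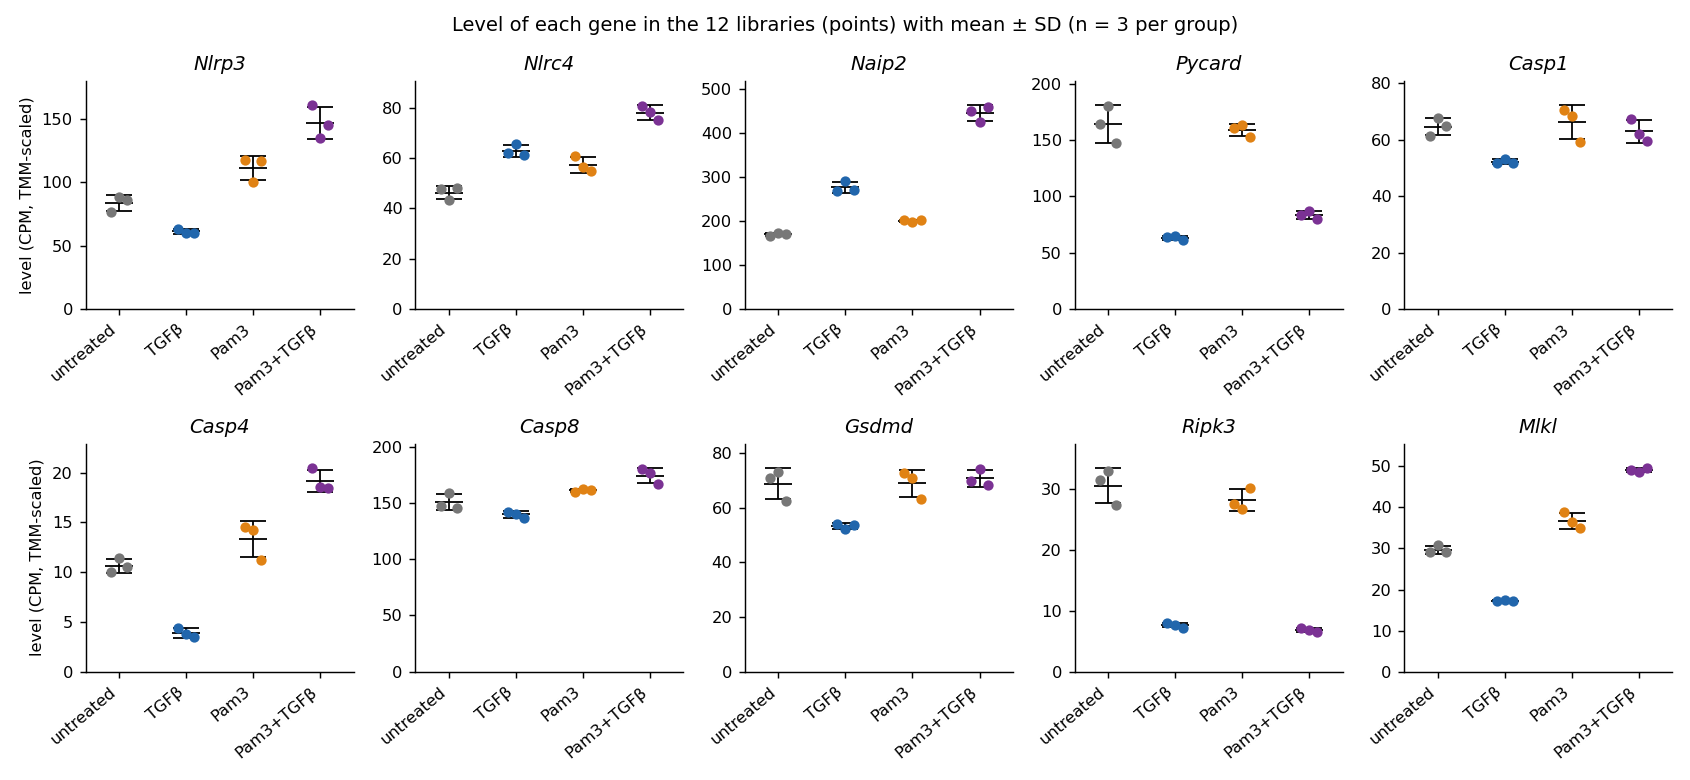
Level of each of the 10 genes (y axis, CPM scaled by TMM, from 0) in the untreated, TGFβ, Pam3 and Pam3+TGFβ groups (x axis). Points are the 3 libraries of a group, and the bars are mean ± SD. The means of Nlrp3, Casp4, Casp8, Gsdmd and Mlkl were lowest with TGFβ alone and highest with both agents (for Gsdmd 3 groups overlap), while Ripk3 was low in all 6 libraries with TGFβ, at 6.51 to 8.03 CPM.

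**Figure D2:**
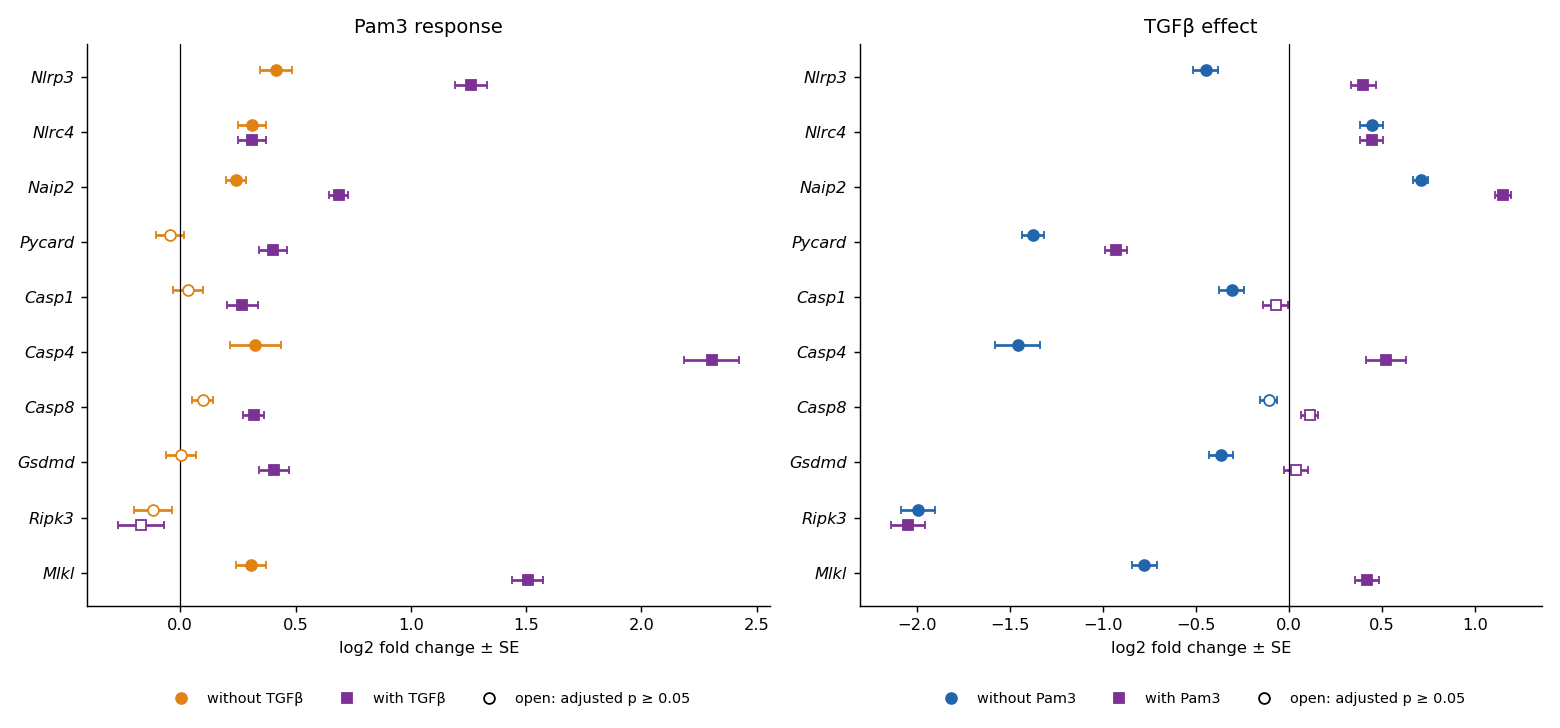
Log2 fold change ± SE of the 10 genes for Pam3 (left, without and with TGFβ) and for TGFβ (right, without and with Pam3). Open symbols have an adjusted p of 0.05 or more. On the right, Nlrp3, Casp4, Casp8, Gsdmd and Mlkl lie below 0 without Pam3 and above 0 with it, where the values of Casp8 and that of Gsdmd with Pam3 were not called.

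The sensors were described first. Nlrp3 encodes the sensor of membrane damage and potassium loss, and lies at chr11:59432394-59457782 on the plus strand, with no other annotated gene over it. It stood at 76.8, 88.2 and 85.6 CPM in untreated libraries and at 63.4, 60.0 and 60.2 with TGFβ. It stood at 117, 100.4 and 116 with Pam3 and at 161, 135 and 145 with both. No 2 groups overlapped, and TGFβ alone gave the lowest and both agents the highest level. Pam3 raised it 1.33-fold without TGFβ (log2 fold change 0.42 ± 0.07, adjusted p = 8.4e-05) and 2.40-fold with it (1.26 ± 0.07, adjusted p = 2.92e-13). The difference between these responses was 0.85 ± 0.10 on the log2 scale (adjusted p = 5.73e-07). The direction of the TGFβ effect turned with Pam3: Nlrp3 fell 1.37-fold without it (-0.45 ± 0.07, adjusted p = 7.48e-06) and was 1.32-fold higher with it (0.40 ± 0.07, adjusted p = 3.27e-05).

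Nlrc4 encodes the sensor that assembles with NAIP proteins once these have bound bacterial flagellin or secretion-system proteins. Its libraries read 47.5, 43.1 and 48.1 CPM untreated, 62.0, 65.5 and 61.0 with TGFβ, 60.8, 56.4 and 54.7 with Pam3, and 80.8, 78.2 and 74.9 with both. Each agent raised it and the groups did not overlap. Pam3 raised it 1.24-fold without TGFβ (log2 fold change 0.31 ± 0.06, adjusted p = 0.000573) and 1.24-fold with it (0.31 ± 0.06, adjusted p = 0.000178). TGFβ raised it 1.36-fold without Pam3 (0.44 ± 0.06, adjusted p = 1.1e-06) and 1.36-fold with it (0.44 ± 0.06, adjusted p = 1.14e-06). The interaction was -0.00044 ± 0.09 on the log2 scale, which is less than its error. Nlrc4 (chr17:74732433-74766165, minus strand) overlaps the protein-coding gene Slc30a6 on the plus strand. The strand setting of the counting is not stated, and how far reads of Slc30a6 enter the count of Nlrc4 was not tested.

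Naip2 encodes the NAIP that binds the inner rod of bacterial type III secretion systems. It was at 166, 173 and 170.1 CPM untreated and 202, 198 and 202 with Pam3. It reached 268, 292 and 271 with TGFβ, and 451, 426 and 461 with both. The groups did not overlap and each agent raised it. Pam3 raised it 1.18-fold without TGFβ (log2 fold change 0.24 ± 0.04, adjusted p = 0.000142) and 1.61-fold with it (0.69 ± 0.04, adjusted p = 7.41e-13). The interaction was 0.44 ± 0.06 (adjusted p = 4.4e-06). TGFβ raised it 1.63-fold without Pam3 (0.71 ± 0.04, adjusted p = 3.12e-13) and 2.22-fold with it (1.15 ± 0.04, adjusted p = 2.23e-17), the largest rise of the 10 with TGFβ. Naip2 (chr13:100278929-100338694, minus strand) lies beside the related genes Naip5, Naip6 and Naip1. How the authors' counting treated reads shared by such genes is not stated, so the level of Naip2 is uncertain. With TGFβ and no Pam3, Naip5 rose by 0.31 ± 0.05 and Naip6 by 0.21 ± 0.08 (adjusted p = 0.028) on the log2 scale, while Naip1 fell by 0.97 ± 0.14. The call of Naip6 was lost without untreated replicate 2 (0.0999 on the log2 scale, adjusted p = 0.168), TGFβ replicate 2 (0.0811) or TGFβ replicate 3 (0.0777). That call was also lost when only the 6 libraries compared were fitted (adjusted p = 0.0583). How far shared reads enter these values was not tested.

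Pycard encodes ASC, the adaptor that links sensors to caspase-1 and forms the large aggregates known as specks. It was at 164, 180.5 and 147 CPM untreated and at 160.4, 164 and 153 with Pam3. It was at 63.9, 64.4 and 61.3 with TGFβ and at 83.2, 87.3 and 79.8 with both. Untreated and Pam3 libraries overlapped, and every library with TGFβ lay below every library without it. TGFβ lowered Pycard 2.60-fold without Pam3 (log2 fold change -1.38 ± 0.06, adjusted p = 5.87e-16) and 1.91-fold with it (-0.93 ± 0.06, adjusted p = 1.46e-12). The Pam3 response was -0.04 ± 0.06 without TGFβ (adjusted p = 0.686). With TGFβ, Pam3 raised Pycard 1.32-fold (0.40 ± 0.06, adjusted p = 6.46e-06), and the interaction was 0.45 ± 0.08 (adjusted p = 0.000411).

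Casp1, the effector protease of the canonical inflammasome, varied little. It ranged from 51.6 to 53.3 CPM with TGFβ and from 59.4 to 70.7 CPM over the other 9 libraries, whose 3 groups overlapped. TGFβ lowered it without Pam3 by 0.31 ± 0.07 on the log2 scale (adjusted p = 0.000361), and in these cells Pam3 raised it by 0.27 ± 0.07 (adjusted p = 0.00194). The Pam3 response without TGFβ was 0.03 ± 0.07 (adjusted p = 0.804) and the interaction 0.24 ± 0.09 (adjusted p = 0.0937), which did not pass.

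Casp4, the caspase of the noncanonical inflammasome, showed the widest swing among the members with an interaction. Its libraries read 10.0, 11.4 and 10.5 CPM untreated, 4.43, 3.78 and 3.43 with TGFβ, 14.5, 14.2 and 11.2 with Pam3, and 20.5, 18.5 and 18.5 with both. These rest on 131 to 160 counts a library in the TGFβ group and on 353 to 819 in the others. TGFβ alone lowered Casp4 2.75-fold (log2 fold change -1.46 ± 0.12, adjusted p = 1.5e-10). Among cells given Pam3, those with TGFβ had 1.43-fold more (0.52 ± 0.11, adjusted p = 0.000223). Pam3 raised it 4.94-fold with TGFβ (2.31 ± 0.12, adjusted p = 1.97e-14), which was the largest Pam3 response of the 10, and the interaction was 1.98 ± 0.16 (adjusted p = 9.79e-10). Untreated and Pam3 libraries overlapped, and the Pam3 response without TGFβ of 0.33 ± 0.11 passed narrowly (adjusted p = 0.0374). It was lost without untreated replicate 1 (adjusted p = 0.132), untreated replicate 3 (0.0847), Pam3 replicate 1 (0.182) or Pam3 replicate 2 (0.155). Casp4 lies at chr9:5308828-5336783 on the plus strand, next to Casp1 at chr9:5298508-5307290, and no annotated gene overlaps it.

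Casp8, the protease that starts death receptor apoptosis and restrains necroptosis, was the steadiest of the 10. Its libraries ranged from 146 to 159 CPM untreated, 137 to 143 with TGFβ, 160 to 163 with Pam3 and 167 to 180 with both, in 4 groups that did not overlap. Pam3 raised it 1.25-fold with TGFβ (log2 fold change 0.32 ± 0.05, adjusted p = 3.57e-06). The response without TGFβ was 0.10 ± 0.05 (adjusted p = 0.162). The interaction of 0.22 ± 0.07 passed (adjusted p = 0.0202) but was lost without TGFβ replicate 2 (adjusted p = 0.063), TGFβ replicate 3 (0.083), Pam3+TGFβ replicate 1 (0.11) or Pam3+TGFβ replicate 2 (0.0639). The TGFβ effects were -0.11 ± 0.05 without Pam3 (adjusted p = 0.0511) and 0.11 ± 0.05 with it (adjusted p = 0.0522), so neither passed. These values sit at the threshold, and both passed with the replicate block (adjusted p = 0.0448 without Pam3 and 0.0455 with it). The effect without Pam3 passed when untreated replicate 3 was left out (adjusted p = 0.0296). The effect with Pam3 passed without untreated replicate 2 (0.0137), untreated replicate 3 (0.033), TGFβ replicate 3 (0.0484) or Pam3+TGFβ replicate 3 (0.0309), and the Pam3 response without TGFβ passed without untreated replicate 2 (0.0251).

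Gsdmd encodes gasdermin D, the pore former of pyroptosis. It ranged from 52.3 to 54.2 CPM with TGFβ alone and from 62.5 to 74.1 CPM over the other 9 libraries, whose groups overlapped. TGFβ alone lowered it 1.29-fold (log2 fold change -0.37 ± 0.07, adjusted p = 3.87e-05). Pam3 raised it 1.33-fold in cells with TGFβ (0.41 ± 0.07, adjusted p = 1.5e-05), to a level that differed by 0.04 ± 0.06 from that with Pam3 alone (adjusted p = 0.676). The Pam3 response without TGFβ was 0.0018 ± 0.06 (adjusted p = 0.992), and the interaction was 0.40 ± 0.09 (adjusted p = 0.00258).

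Mlkl, the pore former of necroptosis, had the same order of group means as Nlrp3, Casp4, Casp8 and Gsdmd. Its libraries read 29.1, 30.8 and 29.1 CPM untreated, 17.3, 17.5 and 17.1 with TGFβ, 38.8, 36.4 and 35.0 with Pam3, and 49.1, 48.7 and 49.6 with both. No groups overlapped. Pam3 raised it 1.24-fold without TGFβ (log2 fold change 0.31 ± 0.07, adjusted p = 0.00114) and 2.84-fold with it (1.51 ± 0.07, adjusted p = 1.18e-15), with an interaction of 1.20 ± 0.09 (adjusted p = 4.34e-10). TGFβ lowered it 1.72-fold without Pam3 (-0.78 ± 0.07, adjusted p = 3.23e-10) and raised it 1.34-fold with Pam3 (0.42 ± 0.06, adjusted p = 6.14e-06).

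Ripk3, the kinase upstream of MLKL, was lowered by TGFβ both without and with Pam3. Its libraries read 31.4, 32.8 and 27.3 CPM untreated, 27.6, 26.7 and 30.1 with Pam3, 8.03, 7.70 and 7.23 with TGFβ, and 7.10, 6.83 and 6.51 with both. The 6 libraries with TGFβ all lay below the 6 without it. TGFβ lowered Ripk3 3.99-fold without Pam3 (log2 fold change -2.00 ± 0.09, adjusted p = 1.22e-15) and 4.13-fold with it (-2.05 ± 0.09, adjusted p = 1.23e-15), the largest TGFβ effects of the 10. Pam3 responses were -0.12 ± 0.08 without TGFβ (adjusted p = 0.387) and -0.17 ± 0.10 with it (adjusted p = 0.186). The interaction was -0.05 ± 0.13 (adjusted p = 0.857). Cells with both agents lay above untreated cells in Mlkl and below them in Ripk3, at 49.1 ± 0.47 against 29.6 ± 0.98 CPM and 6.81 ± 0.30 against 30.5 ± 2.89 CPM, a pair of groups that did not overlap in either gene and was not among the contrasts tested.

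Levels of different genes can be compared per transcript length only, here as CPM per kilobase of the canonical transcript. The authors' aligner does not split reads over introns, so genes with many short exons can lose more reads. Casp1 has 10 exons in 1531 bases and Casp4 9 in 1441, against 3 in 4122 for Pycard. The part of this loss in the order below was not tested. In untreated cells Casp8 was highest at 55.1 ± 2.69, followed by Casp1 (42.3 ± 2.00), Pycard (39.8 ± 4.04) and Gsdmd (34.9 ± 2.87). Casp1 overlapped Pycard, and Pycard overlapped Gsdmd. Then came Naip2 at 26.7 ± 0.51, Nlrp3 at 20.8 ± 1.49, Ripk3 at 16.1 ± 1.53, Nlrc4 at 9.72 ± 0.57, and Casp4 (7.38 ± 0.48) and Mlkl (7.11 ± 0.24), which overlapped. With both agents the order began with Naip2 at 70.2 ± 2.82 and ended with Ripk3 at 3.60 ± 0.16, and Nlrp3 at 36.5 ± 3.20 overlapped Casp1 and Gsdmd. The place of Naip2 is uncertain, since the treatment of reads shared with related Naip genes is not stated. The place of Pycard depends on the annotated length: the canonical transcript of 4122 bases gave 39.8 in untreated cells. Transcripts of 906 and 493 bases of the same gene gave 181 and 332.7 in those cells. Over the union of exons Casp4 was lowest in all groups except Pam3+TGFβ, at 0.739 to 2.54. Its exons span 5249 bases against 1441 in the canonical transcript, on which it was lowest with TGFβ alone only (2.69). Over the union, in untreated cells, Casp1 stood at 20.6 ± 0.97 and Gsdmd at 22.9 ± 1.89, both below Naip2 at 25.8 ± 0.49. With both agents Nlrp3, at 36.2 ± 3.17, no longer overlapped Gsdmd (23.6 ± 1.01) or Casp1 (20.1 ± 1.30).

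**Figure D3:**
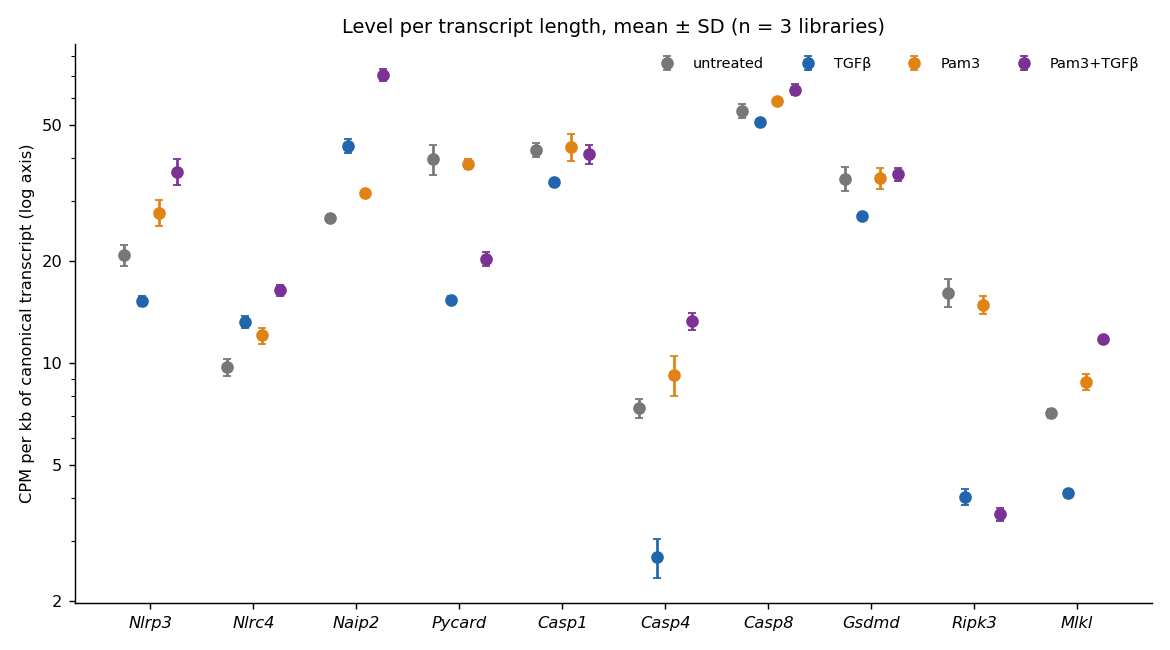
CPM per kilobase of canonical transcript (y axis, log scale) for the 10 genes (x axis) in the 4 groups, as mean ± SD of 3 libraries. Naip2 rises above Casp8 in Pam3+TGFβ cells, and Ripk3 drops to the bottom of the 10 there. Reads shared with related Naip genes leave the level of Naip2 uncertain.

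The other genes of these pathways were taken from 6 lists with 59 genes, of which 51 passed the filter. With Pam3, 10 rose and 6 fell without TGFβ (18.3% of all tested genes were called), and 19 rose and 12 fell with it (38.5%). With TGFβ, 13 rose and 20 fell without Pam3 (51.0%), and 24 rose and 16 fell with it (45.3%). The interaction passed for 22 of the 51, against 15.9% of all tested genes, with the larger Pam3 value under TGFβ in 17 and the smaller in 5. The count of 5 came to 3 without Pam3 replicate 1. The counts for each list that follow are to be read against the same 15.9%. Their median log2 values over these comparisons, in the same order, were -0.01, 0.07, -0.12, 0.10 and 0.13.

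Of the 51 genes, Il1b and Il1a, whose products leave the cell through these pores, had the largest Pam3 responses with and without TGFβ. Il1b, the precursor of interleukin-1β, stood at 61.6 ± 14.9 CPM untreated, 65.7 ± 4.95 with TGFβ, 357 ± 42.1 with Pam3 and 1563 ± 146 with both. Pam3 raised it 5.79-fold without TGFβ (adjusted p = 1.28e-05) and 23.8-fold with it (adjusted p = 9.14e-08), with an interaction of 2.04 ± 0.24 (adjusted p = 0.000456). Il1a, the precursor of interleukin-1α, rose in the same pattern from 111 ± 19.0 to 384 ± 25.5 CPM without TGFβ and from 96.9 ± 10.2 to 1418 ± 106 CPM with it (interaction 2.09 ± 0.18, adjusted p = 1.3e-05). Il1rn, the receptor antagonist that opposes both, rose 1.70-fold and 3.13-fold with Pam3 (interaction 0.88 ± 0.10, adjusted p = 5.96e-07). Il18, the other cytokine matured by caspase-1, went down with TGFβ: it was at 76.8 ± 2.76 CPM untreated and 44.4 ± 1.48 with TGFβ, and at 70.2 ± 2.91 with Pam3 and 38.3 ± 0.80 with both. The TGFβ effects on Il18 were -0.79 ± 0.06 and -0.88 ± 0.06 on the log2 scale (adjusted p = 1.12e-11 and 2.16e-12). Of the 6 genes of this list 3 passed the interaction, all with the larger response under TGFβ.

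Among the 13 other sensors, 10 were tested and 4 passed the interaction, 3 with the larger and 1 with the smaller Pam3 value under TGFβ. Aim2, the sensor of cytosolic DNA, was at 69.2 ± 4.12 CPM untreated, 88.3 ± 1.79 with TGFβ, 66.9 ± 5.83 with Pam3 and 117 ± 1.08 with both (interaction 0.45 ± 0.08, adjusted p = 0.000405). Nod2, a sensor of bacterial peptidoglycan named here after its values were seen, rose 1.33-fold and 3.54-fold with Pam3 (interaction 1.41 ± 0.12, adjusted p = 2.68e-09). Nlrp1a was the exception, with an interaction of -0.34 ± 0.11 (adjusted p = 0.0383). That call rests on single libraries: it was kept without any of untreated replicate 1, TGFβ replicate 3 or Pam3+TGFβ replicates 1 and 3, and lost without any of the other 8, with adjusted p from 0.0113 to 0.122 over all 12. Nlrp1b ranged in group means from 32.5 to 41.0 CPM with an interaction of 0.05 ± 0.11 (adjusted p = 0.83). Naip5, which binds flagellin, was at 86.3 ± 5.93, 107 ± 3.16, 81.7 ± 2.48 and 112 ± 2.42 CPM in the untreated, TGFβ, Pam3 and Pam3+TGFβ groups, with an interaction of 0.15 ± 0.08 (adjusted p = 0.224). Mefv, which encodes pyrin, was not tested: it had 11, 2 and 12 counts in the Pam3 libraries, 1 count in all untreated libraries, and 0 in all 6 libraries with TGFβ.

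Of 10 regulators 9 were tested, and 4 passed the interaction, 2 in each direction. Of the 2 with the smaller Pam3 value under TGFβ, the call of Pstpip1 (-0.80 ± 0.22, adjusted p = 0.0115) was lost without Pam3+TGFβ replicate 2 (adjusted p = 0.0513). Nek7, a kinase that NLRP3 needs for assembly, fell with TGFβ by 0.46 ± 0.05 without Pam3 and by 0.43 ± 0.05 with it (adjusted p = 1.05e-08 and 4e-08). Txnip, a redox protein that can bind NLRP3, was lowered by TGFβ in cells not given Pam3, to 149 ± 2.30 CPM against 318 ± 8.0 (adjusted p = 1.14e-16), and to 177 ± 7.71 against 305 ± 15.7 in cells given Pam3 (adjusted p = 1.09e-13). The interaction was 0.31 ± 0.06 (adjusted p = 0.000797). P2rx7, the ATP-gated channel used to trigger NLRP3, stood between 61.8 and 70.7 CPM in group means, with an interaction of -0.15 ± 0.07 (adjusted p = 0.189). Pstpip1, a binding partner of pyrin named after its values were seen, was lowered by TGFβ in cells not given Pam3, to 1.68 ± 0.07 CPM against 22.8 ± 2.63 (adjusted p = 9.04e-18). It was at 23.7 ± 0.54 CPM with Pam3 and 1.02 ± 0.34 with both, the latter on 28 to 48 counts a library. Serpinb1a, an inhibitor of inflammatory proteases also named after its values were seen, fell with Pam3 from 178 ± 2.00 to 83.4 ± 3.57 CPM in cells with TGFβ and from 111 ± 5.42 to 83.1 ± 3.78 CPM in cells without it (interaction -0.67 ± 0.07, adjusted p = 1.39e-07).

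Of the other caspases 5 of 6 were tested, and 3 passed the interaction. Casp12 had 1 count over the 12 libraries and was not tested.

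Of the 8 genes of gasdermins and membrane rupture 5 were tested, and 2 passed the interaction, both with the larger Pam3 value under TGFβ. Ninj1, the protein that tears the plasma membrane at the end of lytic death, was at 15.8 ± 2.28 CPM untreated, 7.14 ± 1.44 with TGFβ, 19.8 ± 1.61 with Pam3 and 14.4 ± 0.40 with both. Pam3 raised it 2.01-fold with TGFβ (adjusted p = 4.32e-07), and the interaction was 0.68 ± 0.17 (adjusted p = 0.00627). Gsdme, another pore-forming gasdermin, had group means of 8.63 to 10.7 CPM and an interaction of 0.16 ± 0.16 (adjusted p = 0.595).

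The 16 genes of necroptosis and the caspase-8 complex were all tested, and 6 passed the interaction, all with the larger Pam3 value under TGFβ. Of these, the call of Cyld (0.29 ± 0.09, adjusted p = 0.0318) was lost in 7 of 12 fits with a library left out (adjusted p up to 0.186). It was also lost with upper-quartile scaling (adjusted p = 0.0693). Zbp1, a nucleic acid sensor that can activate RIPK3, was at 19.8 ± 1.26 CPM untreated, 8.34 ± 0.77 with TGFβ, 48.8 ± 3.05 with Pam3 and 93.4 ± 1.49 with both. Pam3 raised it 2.46-fold without TGFβ (adjusted p = 9.4e-13) and 11.2-fold with it (adjusted p = 4.71e-21), with an interaction of 2.19 ± 0.10 (adjusted p = 6.3e-14). Cflar, the caspase-8-like inhibitor cFLIP, rose 1.35-fold and 2.38-fold with Pam3 (interaction 0.82 ± 0.08, adjusted p = 3.63e-08). Tnfaip3, which encodes the ubiquitin-editing enzyme A20 and was named after its values were seen, rose 1.60-fold and 7.56-fold (interaction 2.24 ± 0.09, adjusted p = 4.93e-15). Ripk1, the partner kinase of RIPK3, was at 147 ± 4.21, 114 ± 2.51, 132 ± 2.31 and 103 ± 2.15 CPM in the untreated, TGFβ, Pam3 and Pam3+TGFβ groups. TGFβ lowered Ripk1 by 0.36 ± 0.05 without Pam3 (adjusted p = 2.81e-07) and by 0.36 ± 0.05 with it (adjusted p = 2.67e-07), and the interaction was -0.0059 ± 0.06 (adjusted p = 0.973). Fadd, the adaptor of caspase-8, had group means of 24.8 to 29.0 CPM and an interaction of 0.20 ± 0.11 (adjusted p = 0.263).

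**Figure D4:**
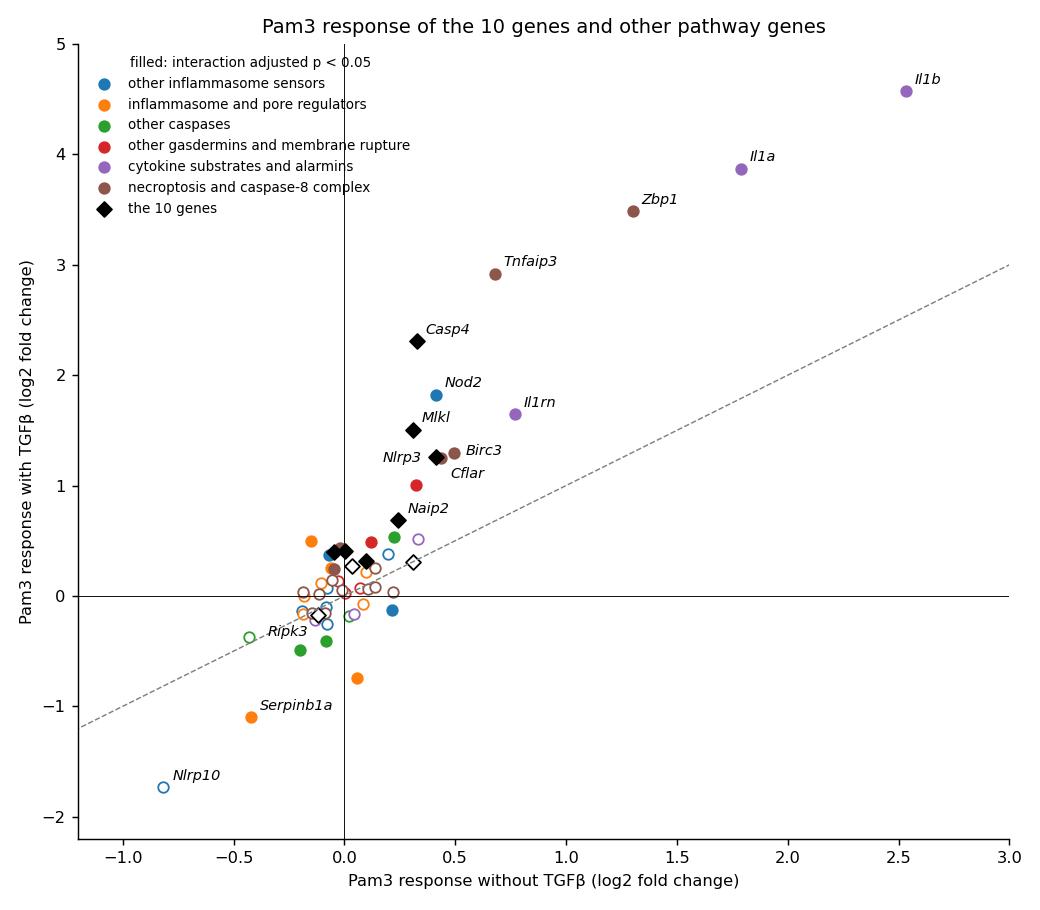
Pam3 response without TGFβ (x axis) against that with TGFβ (y axis), both as log2 fold change, for the 10 genes (diamonds) and 51 other pathway genes (circles, coloured by list). Filled symbols passed the interaction test, and on the dashed line the responses are equal. The 7 filled diamonds lie above the line, as do Il1b, Il1a, Zbp1 and Tnfaip3.

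The genes whose pattern was most like each member were named by the smallest root mean square difference of log2 CPM, centred on each gene's mean, over the 12 libraries. As a description, Nlrp3 was nearest to Slc20a1 (0.07), Mlkl to Ptger4 (0.08) and Casp4 to Adora2b (0.16), against SDs of these members over the libraries of 0.48, 0.55 and 0.86. Ptger4 read 48.5 ± 1.87, 28.8 ± 1.44, 58.3 ± 2.98 and 87.5 ± 3.52 CPM in the untreated, TGFβ, Pam3 and Pam3+TGFβ groups. Adora2b read 49.4 ± 4.32, 19.1 ± 2.30, 73.7 ± 2.74 and 87.1 ± 3.96 CPM in the same order. For Casp4, Abtb2 ranked 2 at 0.22 and Nfkb2 ranked 3 at 0.23. Nfkb2 read 86.5 ± 11.1, 42.2 ± 4.28, 104 ± 2.87 and 163 ± 6.74 CPM. Why these genes lay near Casp4 was not tested. Pycard was nearest to Ctsb (0.07), which read 2898 ± 174, 1169 ± 31.0, 2798 ± 58.2 and 1571 ± 22.7 CPM, and Ripk3 to Stom (0.11), which read 294 ± 2.96, 69.4 ± 4.56, 245 ± 5.62 and 61.0 ± 2.96 CPM. Naip2 was nearest to Acp5 (0.08), Nlrc4 to Gnaq (0.06), Casp1 to Dld (0.04), Gsdmd to Dbnl (0.05) and Casp8 to Lrrc59 (0.03). Among the members themselves Nlrp3 and Mlkl lay 0.15 apart and Casp1 and Gsdmd 0.09, while Ripk3 and Pycard, the nearest member to each other, lay 0.48 apart.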

How the data were processed

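Per the submitters' processing notes and the series' design text, the authors used FastQC 0.11.7 for read quality, Bowtie2 2.4.1 for alignment (genome GRCm39), featureCounts in Subread 2.0.0 for counts, and DESeq2 1.36.0 under R 4.2.1. Bowtie2 does not split reads over introns, so reads across exon junctions can be lost. The annotation, strand setting and handling of multiply aligned reads are not given in the sources used here.

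The deposited raw counts per gene symbol were used. The authors' normalized values (a signal) equal the deposited count divided by 1 constant per library, from 0.999 to 1.40, and served only in an alternative. Every pair of replicates differed beyond sampling noise, measured as chi-square per degree of freedom. It was highest in pairs with untreated replicate 3 (159 and 183), TGFβ replicate 2 (161 and 217) and Pam3 replicate 1 (133 and 220). The remaining pair of those groups was at 17.7, 16 and 24.6, and the Pam3+TGFβ pairs at 9.99 to 28.

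Genes were kept with filterByExpr (minimum count 10) and scaled by TMM in edgeR 4.0.16 (R 4.3.3). A robust quasi-likelihood fit with a mean for each of the 4 groups used all 12 libraries and gave 5 contrasts, and p-values were adjusted over 14749 genes. The interaction is the log2 Pam3 change with TGFβ less the one without. SE is the log2 fold change divided by the square root of F. CPM are TMM-scaled. The procedure was tested on simulated data with changes planted in the Pam3+TGFβ group only. These were larger than most changes of the 10 genes, so that test does not cover small changes. Intervals for counting error are not given, since reads carry no molecular identifiers.

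Members, gene lists and tests were chosen with earlier results of these data known. Besides the 10 members, 20 pathway genes were named by choice of role, plus any called against most of its list in the interaction (Nlrp1a). Of these, 2 are not reported here. Gene positions come from the GENCODE annotation of GRCm39 and promoters from RefSeq. Alternatives were DESeq2-type and upper-quartile scaling, DESeq2 1.42.0, limma-trend (limma 3.58.1) on log2(x + 1) of the authors' deposited normalized signal, dropping the filter, a stricter one (10 counts in each library), a replicate block, fitting only the 6 libraries compared (not for the interaction), and leaving out each library.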

Additional observations from a re-analysis of the deposited data

Results flagged for a closer look

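By edgeR's interaction test, the response to Pam3 depended on TGFβ for 7 of the 10 members and 8 of the 16 tested pathway genes chosen by role and reported here, against 15.9% of all tested genes. Among the members the difference in log2 fold change was 1.98 for Casp4, 1.20 for Mlkl, 0.85 for Nlrp3, 0.45 for Pycard, 0.44 for Naip2, 0.40 for Gsdmd and 0.22 for Casp8. Among the pathway genes it was 2.19 for Zbp1, 2.09 for Il1a, 2.04 for Il1b, 0.88 for Il1rn, 0.82 for Cflar, 0.68 for Ninj1, 0.45 for Aim2 and 0.31 for Txnip. A positive value means a higher log2 Pam3 value with TGFβ, and the 15 values given here were positive, while 5 of the 51 pathway genes tested had a negative one that passed. Single outlying libraries were not tested for in these groups of 3, and the fits were repeated without each library in turn.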

How the results depend on the processing

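Over both directions together, no count of called members or pathway genes moved by over 1.5 times under the alternatives run. By direction, 1 count did: the 5 pathway genes with a smaller Pam3 value under TGFβ came to 3 without Pam3 replicate 1. Members called ranged from 4 to 6, 9 to 9, 9 to 10, 7 to 8 and 6 to 7 for the Pam3 responses without and with TGFβ, the TGFβ effects without and with Pam3, and the interaction. Of 990 values of single members under an alternative, 947 kept their direction and call, 10 lost and 13 gained the call, and 20 changed sign, all of them uncalled and near 0. Gsdmd's Pam3 response without TGFβ was -0.000928 with DESeq2-type scaling, -0.0147 with upper-quartile scaling, -0.00118 with DESeq2, -0.0012 with no filter, and -0.065 to 0.0584 with a library left out. The same response ranged from -0.118 to 0.0316 for Pycard and from -0.0145 to 0.104 for Casp1 with a library left out, and Gsdmd's TGFβ effect with Pam3 from -0.0115 to 0.0821. The interaction of Nlrc4 was 0.00028 with DESeq2-type scaling, 0.00232 with limma-trend, 0.0102 with no filter, 0.0031 with at least 10 counts in every library, and -0.0497 to 0.0529 with a library left out, and that of Ripk3 -0.113 to 0.031. The cause was not tested.

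Casp4's Pam3 response without TGFβ was lost with limma-trend (adjusted p = 0.0643) and Casp8's interaction with upper-quartile scaling (adjusted p = 0.0707). Casp8's TGFβ effect with Pam3 passed in 6 of 8 other settings. Upper-quartile scaling turned the split of all calls in the Pam3 response with TGFβ from 3008 higher and 2670 lower to 2477 and 3489, and that without TGFβ from 1419 and 1278 to 1299 and 1495. It moved that of the interaction from 1516 and 836 to 1255 and 1097. The stricter filter turned the TGFβ effect with Pam3 from 3165 and 3514 to 3261 and 2903. With upper-quartile scaling 9 members were called higher in the Pam3 response with TGFβ and 6 in the interaction.

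Same-numbered libraries did not deviate together in every pair: 7 of 18 correlated over 0.1 (r from -0.169 to 0.278), although the pairs numbered 3 were all positive (0.0343 to 0.278), and 5 of 12 libraries lay nearest to their own number. With the replicate block 5, 9, 10, 8 and 7 members were called. The members gained were Casp8 in the TGFβ effects without Pam3 (adjusted p = 0.0448) and with it (0.0455). Casp4 in the TGFβ group, at 131 to 160 counts, and the low counts of Mefv limit what depth can show.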
